A study of Mus musculus with 9 samples.

Results

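The genes examined were *Vip*, *Cck*, *Calb2*, *Prox1*, *Sp8*, *Nr2f2*, *Adarb2*, *Reln* and *Ndnf*, which mark interneurons born in the caudal ganglionic eminence (CGE) and cells of layer 1. They were taken by gene symbol, and they are 9 of the 24624 genes in the table. RNA from a pair of cortical hemispheres of each mouse was sequenced at postnatal day 0 (P0), with 1 library per mouse. The groups were wild type (Fezf2+/+, 3 libraries, bc201 to bc203), Fezf2-/- (4 libraries, bc204 to bc207) and Fezf2-/-; Fezf2-EnR (2 libraries, bc208 and bc209). The Fezf2- allele is a null that carries a *PLAP* reporter driven by the *Fezf2* promoter, and both mutant groups are homozygous for it. Fezf2-EnR is a BAC transgene that puts the DNA-binding domain of FEZF2, joined to the repressor domain of engrailed, under the control of *Fezf2* regulatory sequence. The comparison of Fezf2-/- with wild type asks which genes change without FEZF2, and the other comparisons ask what the repressor form restores. Litter m1 held 2 wild type and 2 Fezf2-/- mice, litter m2 held 1 wild type and 1 Fezf2-/-; Fezf2-EnR mouse, and litter m3 held 2 Fezf2-/- mice and 1 Fezf2-/-; Fezf2-EnR mouse.

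Cortical interneurons arise outside the cortex, in the ganglionic eminences, and migrate into it before birth. The CGE supplies the interneurons that later make vasoactive intestinal peptide, cholecystokinin or calretinin, together with neurogliaform cells that come to lie in layer 1. Reelin, the product of *Reln*, is secreted at this age mainly by Cajal-Retzius cells at the surface of the cortex, which are not CGE-derived, and by some interneurons. *Cck* is also transcribed by many excitatory cortical neurons, and *Nr2f2*, *Prox1*, *Calb2* and *Ndnf* are not confined to interneurons either. A change in bulk RNA therefore does not name the cell that made it, and a change in cell number cannot be told apart from a change in RNA per cell.

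Of the 9 genes, *Cck* was the one that passed the test, and it did so in 2 of the 3 comparisons. It was 2.39-fold higher in Fezf2-/- than in wild type cortices, and its level with Fezf2-EnR was 0.318 times that in Fezf2-/-. The transcription factor gene *Sp8* and the RNA-editing family gene *Adarb2* were also higher in all 4 Fezf2-/- libraries than in any wild type library, but their adjusted p missed the threshold. *Reln*, *Ndnf*, *Calb2*, *Nr2f2*, *Prox1* and *Vip* overlapped between these groups.

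**Figure D1:**
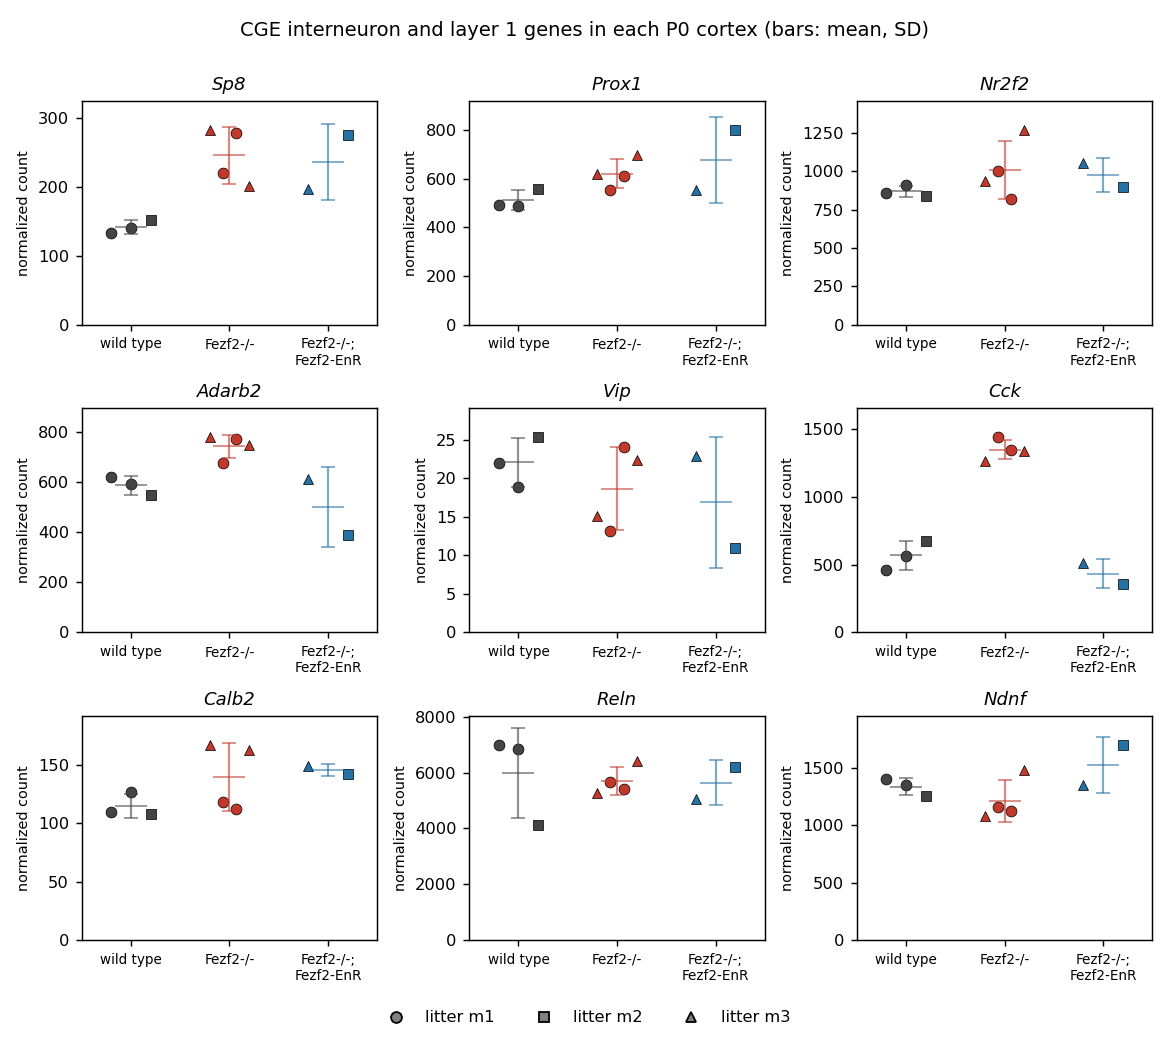
Normalized count (read count divided by the library's size factor) of each gene, on axes that start at 0, in the 3 wild type, 4 Fezf2-/- and 2 Fezf2-/-; Fezf2-EnR libraries. Symbols mark litters, and bars give the mean and SD of each group. *Cck* lies between 1267 and 1439 in Fezf2-/- and at or below 677 in every other library.

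The deleted gene itself served as a check of the labels. *Fezf2* had normalized counts of 979 to 1232 in wild type, 193 to 242 in Fezf2-/- and 907 to 1001 in Fezf2-/-; Fezf2-EnR libraries, where reads of the transgene are included. Whole reads could be recovered from the values of all 9 libraries and came to between 18716575 and 25127623 per library. Forebrain and cortical genes were present in every library. Libraries bc204 and bc208, both of litter m3, stood apart by striatal genes. The summed level of the 7 measured striatal genes was 3476 in bc204 and 2504 in bc208, against 645 to 1471 in the other 7 libraries. Each of these genes but *Ppp1r1b* was highest in bc204 and bc208. *Ppp1r1b* had 858 in bc204 and 973 in bc208, and 856 to 1084 in wild type. It had 272 to 431 in bc205 to bc207 and 684 in bc209. Library bc209 had the lowest mean correlation with the others (Pearson r = 0.9814 over genes). By *Xist*, bc201, bc208 and bc209 came from females (7895 to 12203) and the other 6 libraries did not (at most 58.9). Sex and the Fezf2-EnR transgene therefore cannot be told apart in the comparison of the mutant groups.

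In what follows a gene was called at a Benjamini-Hochberg adjusted p under 0.05 over the 16197 genes tested, and all 9 genes passed the filter on low values. In Fezf2-/- against wild type, 1 of the 9 genes was called, against 0.858% of all genes tested. At an unadjusted p under 0.05 there were 3 of 9, against 10.8% of all genes, and in 3 of 9 the groups did not overlap, against 13.0% of all genes. The median log2 fold change was 0.26 over the 9 genes and 0 over all genes.

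The finding rests on *Cck*, and *Sp8* and *Adarb2* lay on the same side of wild type without being called. To show what lies before the starts of these genes, their upstream sequences are given 5′ to 3′ on the gene's strand, each 250 bases long and ending at the base before the annotated start (RefSeq, GRCm38.p6). They lie at chr9:121495695-121495944 on the minus strand for *Cck*, at chr12:118846079-118846328 on the plus strand for *Sp8* and at chr13:8202616-8202865 on the plus strand for *Adarb2*. Capitals mark every match, on either strand, to the E-box CANNTG, the TATA box TATAAA, the CCAAT box CCAAT, the GC box GGGCGG or the cyclic AMP response element TGACGTCA.
Cck: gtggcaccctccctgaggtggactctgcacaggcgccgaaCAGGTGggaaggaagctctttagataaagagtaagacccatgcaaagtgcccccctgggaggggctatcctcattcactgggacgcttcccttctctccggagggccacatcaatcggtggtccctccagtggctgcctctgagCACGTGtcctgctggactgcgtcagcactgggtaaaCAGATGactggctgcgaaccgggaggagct
Sp8: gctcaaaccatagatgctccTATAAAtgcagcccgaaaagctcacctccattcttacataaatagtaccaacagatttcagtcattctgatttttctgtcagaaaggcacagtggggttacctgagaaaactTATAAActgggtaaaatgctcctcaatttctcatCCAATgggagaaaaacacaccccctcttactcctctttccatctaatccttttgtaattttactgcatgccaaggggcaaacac
Adarb2: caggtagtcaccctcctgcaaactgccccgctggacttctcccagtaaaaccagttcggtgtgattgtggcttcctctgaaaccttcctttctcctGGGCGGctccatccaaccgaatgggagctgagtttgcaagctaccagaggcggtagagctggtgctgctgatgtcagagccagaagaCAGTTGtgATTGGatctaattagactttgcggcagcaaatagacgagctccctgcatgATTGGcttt
The *Cck* window held 3 E-boxes and no match to the other motifs. The *Sp8* window held 2 matches to the TATA box, 230 to 225 and 118 to 113 bases before the start, and 1 to the CCAAT box. The *Adarb2* window held 1 E-box, 2 CCAAT boxes and 1 GC box. All of these are matches of letters, and their use was not tested. Over 32536 distinct windows of the same length, 66.2% held an E-box, 12.3% a TATA box, 33.8% a CCAAT box, 33.0% a GC box and 1.56% a cyclic AMP response element. No motif was shared by all 3 windows. G and C made up 60.0% of the *Cck* window, 40.8% of the *Sp8* window and 52.8% of the *Adarb2* window, against a median of 52.4%.

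Of the transcription factor genes *Sp8*, *Prox1* and *Nr2f2*, the first, a zinc finger gene expressed in CGE and olfactory interneuron lineages, differed most between Fezf2-/- and wild type. Its normalized counts were 133, 141 and 152 in wild type, 283, 220, 279 and 201 in Fezf2-/-, and 197 and 275 in Fezf2-/-; Fezf2-EnR libraries. Every library without endogenous *Fezf2*, with or without the transgene, lay above every wild type library. Fezf2-/- exceeded wild type by 0.77 on the log2 scale (standard error 0.154, limma adjusted p = 0.0511), and *Sp8* ranked 140th by p when 139 genes were called. Between the mutant groups the difference was -0.06 with a 95% interval of -0.45 to 0.33. Against wild type the transgenic group differed by 0.71 (standard error 0.185, limma adjusted p = 0.127).

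The call on *Sp8* moved with the analysis. It was made in 10 of 21 alternative fits, among them the one in which litter was a block (0.91 on the log2 scale, limma adjusted p = 0.0315), the one within litter m1 alone (0.85, limma adjusted p = 0.025) and DESeq2 on recovered reads (0.79, DESeq2 adjusted p = 0.00114). It was not made by edgeR on the same reads (adjusted p = 0.0513), nor by limma without any 1 of the wild type libraries or of bc204, bc205 and bc206 (adjusted p from 0.0903 to 0.22). The *Sp8* level of 283 in bc204 coincides with that library's striatal signal. In bc208, with the next highest striatal sum, *Sp8* was 197. It was 279 in bc206 and 275 in bc209, where the striatal sums were 763 and 1045. Without bc204 and bc208, a choice made after seeing the data, the difference was 0.70 (limma adjusted p = 0.0687). The part of striatal RNA in the *Sp8* difference was not tested.

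**Figure D2:**
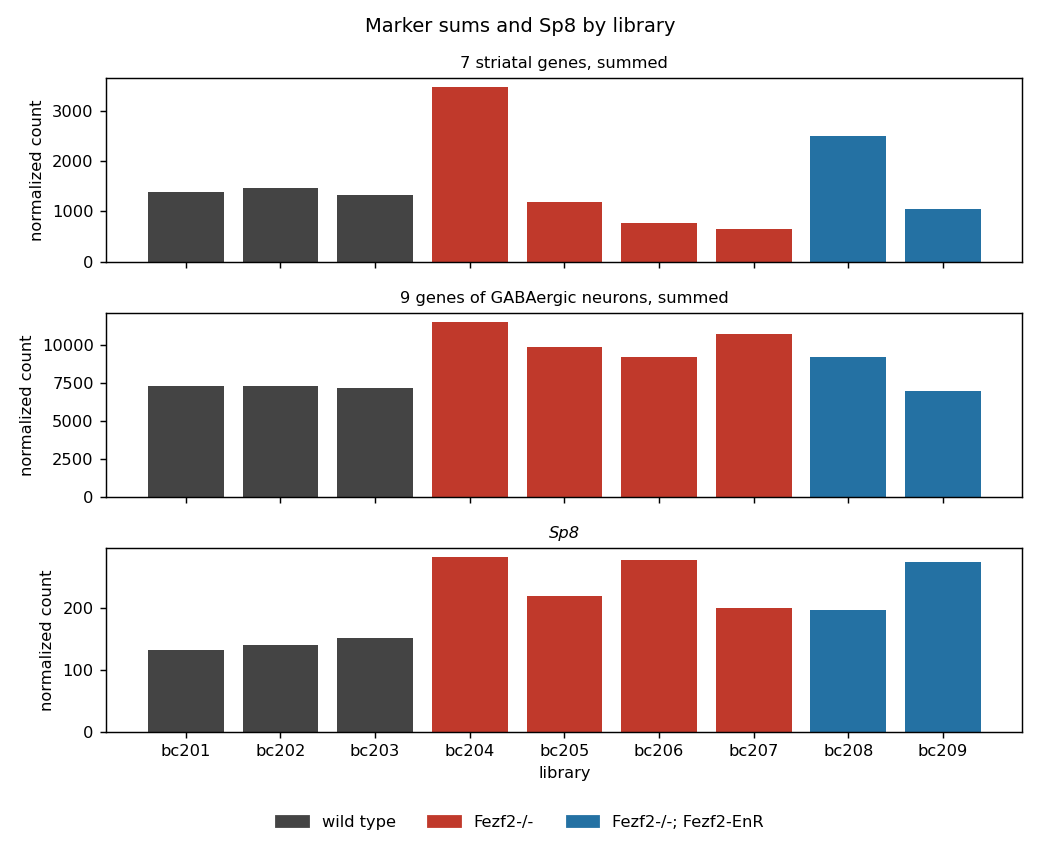
Summed normalized count of 7 striatal genes, of 9 genes shared by GABAergic neurons, and the level of *Sp8*, in each of the 9 libraries coloured by genotype, with axes from 0. The striatal sum is highest in bc204 (3476) and bc208 (2504). *Sp8* is 283 in bc204, 279 in bc206, 275 in bc209 and 197 in bc208.

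*Prox1*, a homeobox gene that is kept on in CGE-derived interneurons and is also a marker of hippocampal granule cells, had 493, 486 and 558 normalized counts in wild type, 619, 554, 612 and 699 in Fezf2-/- and 553 and 801 in Fezf2-/-; Fezf2-EnR libraries. Only the wild type library of litter m2 reached the Fezf2-/- range. Its difference from wild type, 0.28 on the log2 scale, did not pass (limma adjusted p = 0.469). *Nr2f2*, which encodes the nuclear receptor COUP-TFII, had 861, 908 and 837 in wild type, 935, 1004, 822 and 1270 in Fezf2-/- and 1056 and 899 in Fezf2-/-; Fezf2-EnR libraries. The groups overlapped, with bc207 the highest, and *Nr2f2* was not called in Fezf2-/- against wild type (log2 fold change 0.20, limma adjusted p = 0.637). The exons of *Prox1* and *Nr2f2* overlap genes on the opposite strand, *Prox1os* and *B130024G19Rik*, and those of *Reln* overlap *Gm10475*. Whether reads were counted by strand is not given in the sources used here, so reads of these pairs cannot be told apart.

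*Adarb2*, which encodes a brain member of the RNA-editing deaminase family that lacks known editing activity and labels most CGE-derived interneurons, had 621, 590 and 548 normalized counts in wild type. The Fezf2-/- libraries had 777, 677, 769 and 746, all above wild type, and the Fezf2-/-; Fezf2-EnR libraries had 611 and 387, both below every Fezf2-/- library. Fezf2-/- differed from wild type by 0.34 on the log2 scale (standard error 0.133, limma adjusted p = 0.38). The transgenic group differed from Fezf2-/- by -0.61 (standard error 0.15, limma adjusted p = 0.107). The second value depended on which transgenic library was kept. It was -0.94 without bc208 (limma adjusted p = 0.00283) and -0.28 without bc209 (limma adjusted p = 0.727), and DESeq2 on recovered reads called it with both (-0.57, adjusted p = 0.0155).

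Of the neuropeptide and calcium-binding genes, *Cck*, the precursor of cholecystokinin, changed most. Its normalized counts were 463, 567 and 677 in wild type, 1267, 1439, 1346 and 1338 in Fezf2-/-, and 511 and 358 in Fezf2-/-; Fezf2-EnR libraries. The 4 Fezf2-/- libraries formed a narrow range above all 5 others, whereas the wild type and transgenic ranges overlapped. The group means were 569 ± 107 (SD, n = 3), 1348 ± 70.6 (SD, n = 4) and 435 ± 108 (SD, n = 2).

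In Fezf2-/- against wild type the log2 fold change of *Cck* was 1.26 (standard error 0.139, limma adjusted p = 0.00134), with a 95% interval of 0.95 to 1.57. An exact two-sided permutation test gave p = 0.0286, the smallest that 4 against 3 libraries can give. *Cck* ranked 31st by p among the 16197 genes. It was called in each of the 21 alternative fits of this comparison, with log2 fold changes from 1.12 to 1.44. Within litter m1 it was 1.44 (limma adjusted p = 0.000192), and without the only female wild type library, bc201, it was 1.12 (limma adjusted p = 0.00754). Without bc204 and bc208 it was 1.29 (limma adjusted p = 0.00218).

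**Figure D3:**
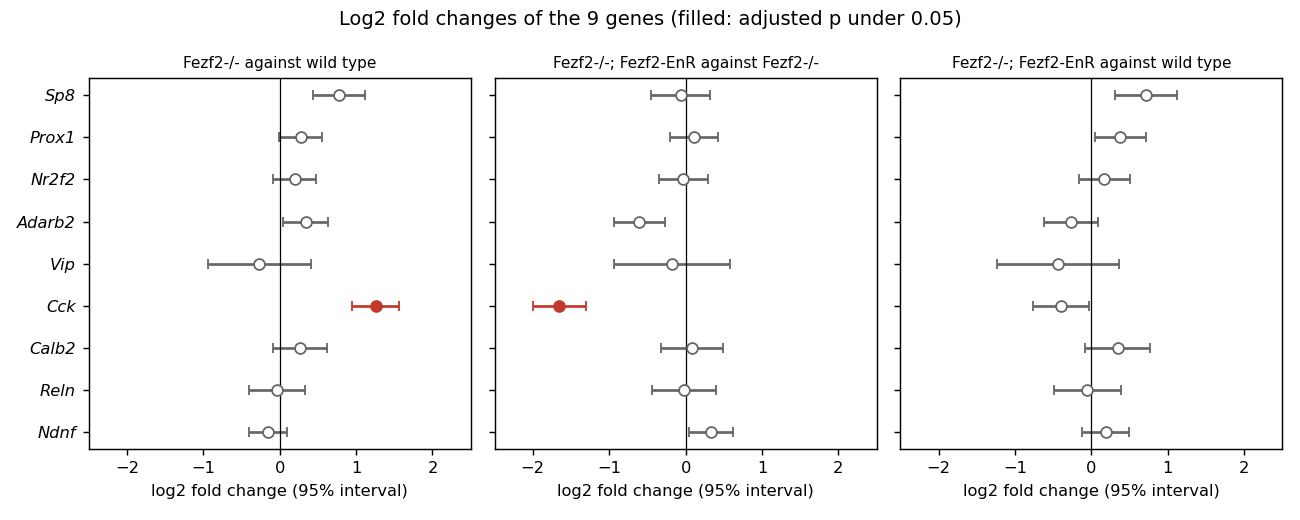
Log2 fold change of each gene with its 95% interval in the 3 comparisons, which share libraries. Filled points are called (limma adjusted p under 0.05): *Cck* at 1.26 in Fezf2-/- against wild type and at -1.65 in Fezf2-/-; Fezf2-EnR against Fezf2-/-.

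With the transgene against Fezf2-/-, *Cck* again was the 1 gene of 9 called, against 0.766% of all genes tested. At an unadjusted p under 0.05 there were 3 of 9, against 16.9%, and the groups did not overlap in 2 of 9, *Cck* and *Adarb2*, against 24.6% of all genes. The log2 fold change of *Cck* was -1.65 (standard error 0.158, limma adjusted p = 0.000781), with a 95% interval of -2.0 to -1.30. It was called in every one of the 20 alternative fits of this comparison that gave a test, from -1.40 without bc209 to -1.94 without bc204 and bc208, and within litter m3, where no test was made, it was -1.35. The exact two-sided permutation test gave p = 0.0667, the smallest that 2 against 4 libraries can give. This comparison and the previous one share the Fezf2-/- libraries and so are not separate evidence.

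Between the transgenic group and wild type, limma called 0 of the 9 genes, against 0.117% of all genes tested. At an unadjusted p under 0.05 there were 3 of 9, *Sp8*, *Prox1* and *Cck*, against 19.3% of all genes. Groups did not overlap in 2 of 9, *Sp8* and *Calb2*, both higher with the transgene, against 34.6% of all genes. edgeR called 0 of 9 and DESeq2 called 1 of 9, *Sp8* (adjusted p = 0.0208). No DESeq2 share over all genes is given for this comparison. The log2 fold change of *Cck* was -0.39 with a 95% interval of -0.76 to -0.03 (limma adjusted p = 0.235).

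The receptors of these peptides were described from a list of 5 genes. *Cckbr* encodes the CCK receptor most abundant in brain, *Cckar* the other CCK receptor, *Vipr1* and *Vipr2* receptors for VIP and the related peptide PACAP, and *Adcyap1r1* the receptor specific to PACAP. In Fezf2-/- against wild type 1 of the 4 tested was called, against 0.858% of all genes tested. In 3 of 4 all Fezf2-/- libraries lay above wild type, against 6.53% of all genes in that direction. *Cckar* was too low to test, with at most 3.01 normalized counts.

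*Adcyap1r1* had 3700, 4026 and 3189 normalized counts in wild type, 4641, 4788, 4993 and 4931 in Fezf2-/-, and 3627 and 3411 in Fezf2-/-; Fezf2-EnR libraries. As for *Cck*, the Fezf2-/- libraries lay above all others. It rose in Fezf2-/- (log2 fold change 0.42, standard error 0.075, limma adjusted p = 0.0298) and was lower with Fezf2-EnR (-0.46, standard error 0.085, limma adjusted p = 0.0395). Without bc204 and bc208 the rise was 0.44 and missed the threshold (limma adjusted p = 0.0577), and the fall missed it with litter as a block (-0.35, limma adjusted p = 0.0904). *Vipr1* had 34.6, 37.9 and 35.8 in wild type, 63.3, 58.8, 60.5 and 64.8 in Fezf2-/- and 31.9 and 20.8 in Fezf2-/-; Fezf2-EnR libraries. It was called between the mutant groups (-1.23, standard error 0.194, limma adjusted p = 0.0217; edgeR adjusted p = 0.0275), where DESeq2 gave no adjusted p, but not in Fezf2-/- against wild type (0.76, limma adjusted p = 0.0922). *Cckbr* was low, at 17.7, 11.6 and 20.02 in wild type, 70.3, 40.3, 35.5 and 87.2 in Fezf2-/- and 45.8 and 14.2 in Fezf2-/-; Fezf2-EnR libraries. The libraries of litter m3 were the highest of each mutant group, and the value of 1.70 on the log2 scale in Fezf2-/- against wild type did not pass by limma (standard error 0.417, adjusted p = 0.129) or edgeR (adjusted p = 0.116), but passed by DESeq2 (1.83, adjusted p = 0.00705).

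**Figure D4:**
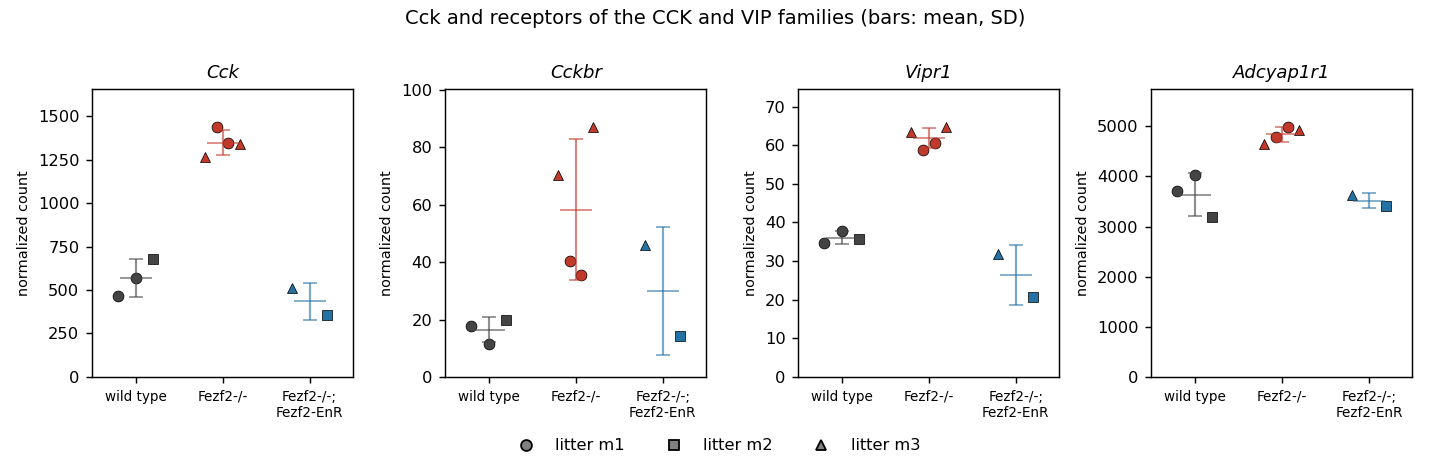
Normalized counts of *Cck*, *Cckbr*, *Vipr1* and *Adcyap1r1* by genotype, on axes from 0, with litters as symbols and the mean and SD as bars. *Cck*, *Vipr1* and *Adcyap1r1* are highest in all 4 Fezf2-/- libraries, whereas *Cckbr* of bc208 (45.8) lies within the Fezf2-/- range of 35.5 to 87.2.

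*Vip* was barely expressed at this age. Its normalized counts were 22.0, 18.9 and 25.3 in wild type, 15.1, 13.1, 24.0 and 22.4 in Fezf2-/- and 22.9 and 10.9 in Fezf2-/-; Fezf2-EnR libraries. All 3 ranges overlapped, and the 95% interval of the log2 fold change in Fezf2-/- against wild type, -0.93 to 0.40, includes moderate changes in either direction. *Calb2*, which encodes the calcium buffer calretinin, had 110, 127 and 108 in wild type, 167, 118, 112 and 163 in Fezf2-/- and 149 and 142 in Fezf2-/-; Fezf2-EnR libraries. The 3 libraries of litter m3 had 149 to 167, and the 4 of litter m1 had 110 to 127. In Fezf2-/- against wild type its log2 fold change of 0.26 (limma adjusted p = 0.621) became -0.05 within litter m1 (limma adjusted p = 0.95).

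Of the secreted layer 1 proteins, *Reln* had 6986, 6860 and 4108 normalized counts in wild type, 5285, 5663, 5427 and 6411 in Fezf2-/- and 5072 and 6202 in Fezf2-/-; Fezf2-EnR libraries. The wild type library of litter m2, bc203, was the lowest of all 9 and the other wild type libraries the highest. Fezf2-/- differed from wild type by -0.03 on the log2 scale, with a 95% interval of -0.40 to 0.33 (limma adjusted p = 0.962). Within litter m1 alone *Reln* was called lower in Fezf2-/- (-0.32, limma adjusted p = 0.0309), from 2 libraries a group. With litter added as a block over all libraries it was -0.07 (limma adjusted p = 0.929). *Ndnf*, a secreted factor that marks neurogliaform and Cajal-Retzius cells of layer 1, had 1403, 1354 and 1254 in wild type, 1080, 1159, 1129 and 1479 in Fezf2-/- and 1354 and 1700 in Fezf2-/-; Fezf2-EnR libraries. The ranges overlapped, and the difference between the mutant groups (0.34, standard error 0.129) was not called (limma adjusted p = 0.236).

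Reelin binds the receptors encoded by *Vldlr* and *Lrp8*, which pass the signal to the adaptor encoded by *Dab1*. Of 13 reelin pathway genes tested, limma, edgeR and DESeq2 called 0 in each of the 3 comparisons. At an unadjusted p under 0.05 limma passed 1 of 13 in Fezf2-/- against wild type (10.8% of all genes), 3 of 13 between the mutant groups (16.9%) and 5 of 13 in the transgenic group against wild type (19.3%). In Fezf2-/- against wild type the log2 fold change was 0.04 for *Vldlr* (limma adjusted p = 0.885), 0.07 for *Lrp8* (limma adjusted p = 0.737) and -0.25 for *Dab1* (limma adjusted p = 0.371). *Dab1* had 7599, 7244 and 6709 in wild type and 5517, 6398, 6612 and 5630 in Fezf2-/-, where no library reached wild type, and 6589 and 8567 in Fezf2-/-; Fezf2-EnR libraries. Without bc204 and bc208 limma called it higher with the transgene than in Fezf2-/- (0.47, adjusted p = 0.0432).

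Of 9 Cajal-Retzius genes, limma, edgeR and DESeq2 called 0 in each comparison, and at an unadjusted p under 0.05 limma passed 2, 4 and 2 of the 9, against the same shares of all genes (10.8%, 16.9% and 19.3%). *Trp73*, the gene of the p53 relative that defines these cells, had 202, 196 and 168 in wild type, 151, 172, 142 and 154 in Fezf2-/- and 210 and 188 in Fezf2-/-; Fezf2-EnR libraries, with a log2 fold change of -0.28 in Fezf2-/- against wild type (limma adjusted p = 0.388). *Barhl2*, with the lowest p of the list, went the other way, at 1.49 (limma adjusted p = 0.325). Its levels were low, from 3.16 in wild type to 39.2 in Fezf2-/-. In this comparison 5 of the 9 genes were higher and 4 lower.

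Among 16 further genes of CGE-derived interneurons, 13 were expressed highly enough to test, and limma called 1, *Igf1*, in Fezf2-/- against wild type, where 0.858% of all genes were called. EdgeR called 0 of 13, and DESeq2 called 3, *Igf1*, *Htr3a* and *Synpr*. Over all genes DESeq2 called 315 in this comparison, where limma called 139. *Igf1*, a growth factor made by CGE-derived and other cells, had 299, 225 and 256 in wild type, 480, 446, 420 and 543 in Fezf2-/- and 434 and 258 in Fezf2-/-; Fezf2-EnR libraries. It was higher in all 4 Fezf2-/- libraries (log2 fold change 0.86, standard error 0.17, limma adjusted p = 0.0478), but not by edgeR (adjusted p = 0.0521) or with litter as a block (0.63, limma adjusted p = 0.0813). *Htr3a*, the serotonin-gated channel that defines CGE-derived interneurons in the adult, had 190, 126 and 121 in wild type and 214 to 241 in Fezf2-/- (log2 fold change 0.65, limma adjusted p = 0.137). DESeq2 called it there (0.62, adjusted p = 0.0405) and in the transgenic group against wild type (0.72, adjusted p = 0.029). In 6 of the 13 the Fezf2-/- libraries lay above wild type, against 6.53% of all genes, and in none below. The median log2 fold change was 0.14.

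The CGE genes were set beside genes of all GABAergic neurons and of interneurons from the medial ganglionic eminence (MGE). The 9 genes shared by GABAergic neurons, such as *Gad1* and *Dlx2*, were above wild type in all 4 Fezf2-/- libraries in 9 of 9 cases, against 6.53% of all genes. Their median log2 fold change was 0.56, and their summed level was 7144 to 7300 in wild type, 9191 to 11484 in Fezf2-/- (the highest in bc204) and 9196 and 6936 in Fezf2-/-; Fezf2-EnR libraries. Limma called 0 of 9 (the lowest adjusted p was 0.0632, for *Dlx2*) and edgeR 0 of 9. At an unadjusted p under 0.05, 8 of 9 passed limma, against 10.8% of all genes. DESeq2 called 6 of 9, all higher, and over all genes it called 315, where limma called 139. The number of genes that DESeq2 tested is not given here. Values were smaller for some of these genes when litter was made a block, at 0.23 for *Slc32a1* (limma adjusted p = 0.617) and 0.24 for *Dlx6* (limma adjusted p = 0.791), which were 0.56 and 0.61 without it. With bc204 and bc208 left out they were 0.41 and 0.39. The MGE list of 9 genes had a median of 0.31, with 4 of 9 above wild type without overlap, against 6.53% of all genes. Limma and edgeR called 0 of these 9, 4 passed limma at an unadjusted p under 0.05 (10.8% of all genes), and DESeq2 called 1, *Sox6*. Its peptide gene *Sst* had 639, 659 and 619 in wild type, 1274, 1086, 928 and 1317 in Fezf2-/- and 906 and 399 in Fezf2-/-; Fezf2-EnR libraries (log2 fold change 0.84, limma adjusted p = 0.169). Limma called *Sst* without bc204 and bc208, both in Fezf2-/- against wild type (0.78, adjusted p = 0.0268) and between the mutant groups (-1.46, adjusted p = 0.00457). The difference between the lists was not tested.

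**Figure D5:**
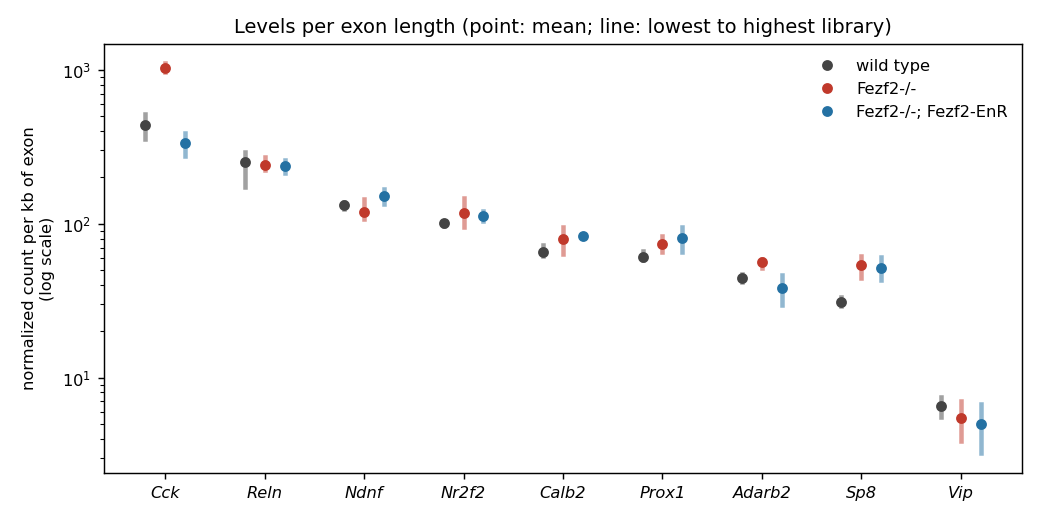
Normalized count per kilobase of annotated exon, on a log axis, for each gene by genotype, where points are means and lines run from the lowest to the highest library. In wild type *Cck* is highest (436) and *Vip* lowest (6.49).

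Levels can be compared between genes only per length. Per kilobase of annotated exon, the order in wild type was *Cck* (436 ± 81.9), *Reln* (252 ± 68.5), *Ndnf* (132 ± 7.51), *Nr2f2* (101 ± 4.2), *Calb2* (65.9 ± 6.21), *Prox1* (61.1 ± 4.68), *Adarb2* (44.7 ± 2.79), *Sp8* (31.2 ± 2.01) and *Vip* (6.49 ± 0.934) (SD, n = 3). *Calb2* and *Prox1* overlapped between libraries, and the other neighbours did not. In Fezf2-/- *Cck* was 1033 ± 54.1 (SD, n = 4) per kilobase and the distance to *Reln*, at 240 ± 21.1, was wider.

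*Cck* lies on chromosome 9 (121489824 to 121495694, minus strand, GENCODE M21 on GRCm38), and no exon of another gene overlaps its exons. Over the 9 libraries, *Has3* (r = 0.98), *Serinc3* (r = 0.974) and *Gnb4* (r = 0.974) had the pattern most like that of *Cck* among 12963 genes. For *Reln* these were *Nfasc* (r = 0.925), *Paf1* (r = 0.915) and *Ralgapa2* (r = 0.904). These are Pearson correlations of log2 values over libraries that include all genotypes and litters.

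Markers of other tissues were read beside these results, and their part in them was not tested. Of the marker lists for olfactory bulb, hippocampus and cortical hem, thalamus, striatum, endothelium, meninges, blood and choroid plexus, those with a gene called by limma were thalamus (*Slc17a6*, log2 fold change 0.59 in Fezf2-/- against wild type, limma adjusted p = 0.0367), meninges (*Lum*, -2.40, limma adjusted p = 0.0176) and, between the mutant groups, olfactory bulb (*Eomes*, 1.88, limma adjusted p = 0.0426) and meninges (*Lum*, 2.30, limma adjusted p = 0.0426). The olfactory bulb, thalamus and meninges lists each rest on that 1 gene, since limma called no other gene of theirs. A call on 1 gene does not name the tissue that made its RNA. *Tbx21*, *Th* (olfactory bulb) and *Gbx2* (thalamus) fell below the filter on low values, with means of 5.1, 3.49 and 1.41. The 4 thalamic genes tested were all higher in Fezf2-/- than in wild type, with log2 fold changes of 0.206 to 1.366. Between the mutant groups *Cdhr1* and *Doc2g* of the olfactory bulb list differed by -1.08 and 0.06. The other 4 meningeal genes tested had log2 fold changes of 0.004 to 0.389 in Fezf2-/- against wild type. Between the mutant groups they had -0.279 to 0.168. *Emx1*, a gene of cortical identity, was lower in Fezf2-/- (-0.44, limma adjusted p = 0.0296). *Ppp1r1b*, of the striatal list, was lower in Fezf2-/- than in wild type without being called (-1.10, limma adjusted p = 0.183). Without bc204 and bc208 its log2 fold change was -1.41. Without bc204 and bc208 the limma calls on *Emx1* and *Slc17a6* were lost (adjusted p = 0.0577 for each), as was that on *Lum* between the mutant groups (adjusted p = 0.106), where DESeq2 gave no adjusted p. DESeq2 also called *Zbtb20*, of the hippocampus and hem list, higher in the transgenic group than in Fezf2-/- (0.49, adjusted p = 0.00496) and than in wild type (0.72, adjusted p = 2.12e-05), *Eomes* in the latter comparison, and the blood gene *Hbb-bt* lower between the mutant groups (-0.67, adjusted p = 0.0307). The summed thalamic level was 1149 to 1219 in wild type, 1481 to 1920 in Fezf2-/- and 1431 and 1125 in Fezf2-/-; Fezf2-EnR libraries. *Slc17a6*, with a mean of 904 over all libraries, made up most of this sum. All 4 choroid plexus genes were below the filter on low values. All 5 blood genes were lower in both Fezf2-/-; Fezf2-EnR libraries than in any Fezf2-/- library. Of all genes, 24.6% did not overlap in either direction in this comparison. Limma called 0 of the 5 blood genes there (lowest adjusted p = 0.143).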

How the data were processed

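P0 cortical RNA of 9 mice was sequenced on an Illumina platform after poly(A) selection. The authors deposited 1 table for 24624 genes, holding read counts scaled by DESeq size factors, that is, a normalized signal to 2 decimals. The submitters' processing notes name Bowtie, STAR, DESeq and mm10 without versions. The counting tool, annotation and use of strand are not given in the sources used here.

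Groups and litters came from the labels. Because the values are normalized, log2(value + 1) was tested with limma 3.58.1 (R 4.3.3, eBayes with a trend) in 1 fit of all 9 libraries with genotype as the only term, with 16197 genes kept by a minimum mean of 10. Fold changes on this scale understate those of low genes. Whole reads were recovered in all 9 libraries (100% of values whole within 0.1) by the same search for the value of 1 read. This value was close to 1 in 2 libraries, bc204 (1.00432) and bc208 (0.995611). The recovered reads were tested with edgeR 4.0.16 and DESeq2 1.42.0 as alternatives. Exact permutation tests used the absolute difference of mean log2 values (SciPy 1.17.1). Exon lengths came from GENCODE M21 (GRCm38, the build called mm10) and upstream sequences from RefSeq (7 of 9 genes matched). The fit was tested on simulated data.

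The genes and gene lists were chosen with earlier results of these data known. Named genes were all 9, genes called in any list, or else up to 3 with the lowest p, and the receptors and adaptor of reelin. The libraries came from separate mice of litters m1, m2 and m3, which were unbalanced over genotype. The main fit had no litter term, so its p-values treat littermates as independent. They measure a spread between mice that includes differences between litters. Alternatives were other pseudocounts (0.1 and 10), other filters, rescaling by TMM or median ratio, fits of only the groups in question, litter as a block or alone, each library left out, and, chosen after seeing the data, bc204 and bc208 both left out.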

Additional observations from a re-analysis of the deposited data

How the results depend on the processing

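*Cck* kept its direction and its call in Fezf2-/- against wild type and in Fezf2-/-; Fezf2-EnR against Fezf2-/- under every alternative that gave a test. The number of the 9 genes called in Fezf2-/- against wild type was 2 instead of 1 without the filter on low values, under TMM or median-ratio rescaling, with only the groups compared, with litter as a block and by DESeq2, 3 within litter m1 alone and 3 at an unadjusted p. With 1 library left out it ranged from 1 to 2. In Fezf2-/-; Fezf2-EnR against Fezf2-/- it was 2 by DESeq2 and without bc204 and bc208, 3 at an unadjusted p, and 1 to 2 with 1 library left out. In Fezf2-/-; Fezf2-EnR against wild type it was 1 by DESeq2 and 3 at an unadjusted p. With only 1 transgenic library kept the number also moved. The number called over all genes moved with the setting too, as given below. These counts are therefore not a result about the 9 genes in particular. The cause of these moves was not tested.

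Uncalled differences near 0 changed sign. For *Reln* in Fezf2-/- against wild type, leaving out 1 library gave -0.29 to 0.10 (0.08 without bc202 and 0.0004 without bc204), and 0.0004 without bc204 and bc208. Between the mutant groups it was 0.17 with litter as a block, -0.16 to 0.13 with 1 library left out and 0.09 without bc204 and bc208. In Fezf2-/-; Fezf2-EnR against wild type it was 0.10 with litter as a block, -0.30 to 0.09 with 1 library left out (0.08 without bc201, 0.07 without bc202), 0.09 without bc204 and bc208, and 0.59 in litter m2. *Calb2* was -0.05 within litter m1 in Fezf2-/- against wild type and, between the mutant groups, -0.02 without bc206 and -0.14 in litter m3. Between the mutant groups *Vip* was -0.68 to 0.33 with 1 library left out (0.33 without bc209) and 0.30 in litter m3. *Prox1* was -0.08 with litter as a block, -0.16 to 0.37 with 1 library left out (-0.16 without bc209) and -0.25 in litter m3. *Sp8* was 0.01 without bc204, 0.004 without bc206, 0.18 without bc208 and 0.25 without bc204 and bc208. *Nr2f2* was -0.15 to 0.09 with 1 library left out (0.09 without bc207 or bc209). In Fezf2-/-; Fezf2-EnR against wild type, leaving out 1 library gave -0.94 to 0.06 for *Vip* and -0.60 to 0.06 for *Adarb2*, both at 0.06 without bc209.

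Over all genes, the number called in Fezf2-/- against wild type was 139, from 66 to 217 with 1 library left out and 315 by DESeq2. Between the mutant groups it was 124, 21 without bc209, 1088 without bc208 and 454 by DESeq2. In Fezf2-/-; Fezf2-EnR against wild type limma called 19 genes, and the numbers under the alternatives are not given here. The group of 2 libraries limits both of its comparisons, and a fit that leaves 1 of them assumes that it varies like the others. Groups share no replicate numbers, so litter served as the block. No member had a library beyond Dixon's critical value in the Fezf2-/- group.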
